A study of Mus musculus with 2 samples.

Results

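The genes described are 48 imprinted genes of the mouse, matched by symbol to 48 of the 55536 annotated genes in the tables. They were chosen from what is known of imprinting, but with earlier results of these data already at hand. Total RNA of the adrenal gland was sequenced from adult female mice of a cross of the 5xFAD strain with the CAST strain, aged 8 to 10 months. 5xFAD mice carry human transgenes driven by the Thy1 promoter and are a model of Alzheimer's disease, and CAST is a wild-derived inbred strain. The labels gave 1 group and 2 biological replicates, called mouse 2 and mouse 1 here. Because the donor identifier was the same for both, only the replicate numbers say that these were different animals, and the spread between them may be technical. Which parent was of which strain and whether each mouse carried the transgenes are not stated in the labels. Ratios below are mouse 2 over mouse 1, and no other group was compared.

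An imprinted gene is transcribed mainly from the copy inherited from one parent, because a methylation mark set in the egg or the sperm is kept on that copy through development. Imprinted genes lie in domains in which a control region, often the promoter of a long noncoding RNA, sets the activity of several neighbours at once. Many of them control growth before birth and are turned down after birth, and several stay active in endocrine tissue. The tables hold total expression of each gene, summed over both alleles, so the allele named below is the one reported for mouse tissues where the gene is imprinted. Reads from CAST alleles were placed on a reference genome of another strain, and the effect of this on each level was not tested.

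Gnas is shown by sequence because its promoters differ in imprinting while feeding a shared set of downstream exons. Its upstream promoter makes the neurosecretory protein Nesp55 from the maternal copy. The exon 1A promoter makes a noncoding transcript from the paternal copy. The downstream promoter makes the stimulatory G-protein subunit Gs-alpha, from both copies in most tissues and from the maternal copy in a few. The windows below are RefSeq promoters of assembly GRCm38.p6, on the plus strand, from 250 bases before to 50 bases after each start. CpG dinucleotides, the sites that carry the methylation mark, are in capitals.
Nesp start, chr2:174284070-174284369: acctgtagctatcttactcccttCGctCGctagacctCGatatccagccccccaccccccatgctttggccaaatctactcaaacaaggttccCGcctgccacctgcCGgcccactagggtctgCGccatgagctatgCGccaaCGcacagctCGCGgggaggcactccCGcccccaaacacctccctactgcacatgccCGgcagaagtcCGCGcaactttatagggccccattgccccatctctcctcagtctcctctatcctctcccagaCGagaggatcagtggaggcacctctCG
Exon 1A start, chr2:174327499-174327798: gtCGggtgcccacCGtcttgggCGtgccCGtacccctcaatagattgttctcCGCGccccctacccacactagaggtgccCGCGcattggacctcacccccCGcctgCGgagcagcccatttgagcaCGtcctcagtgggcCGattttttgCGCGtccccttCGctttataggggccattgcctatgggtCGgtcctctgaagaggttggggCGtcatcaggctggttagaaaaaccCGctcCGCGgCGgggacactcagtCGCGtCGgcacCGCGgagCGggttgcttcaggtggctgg
Gs-alpha start, chr2:174329756-174330055: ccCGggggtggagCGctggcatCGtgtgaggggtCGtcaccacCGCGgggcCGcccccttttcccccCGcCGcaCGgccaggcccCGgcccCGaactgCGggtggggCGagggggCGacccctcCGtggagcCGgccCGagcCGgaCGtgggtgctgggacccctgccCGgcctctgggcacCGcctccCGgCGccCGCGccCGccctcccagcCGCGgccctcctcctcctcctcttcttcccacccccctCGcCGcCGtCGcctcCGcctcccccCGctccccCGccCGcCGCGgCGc
The Nesp window held 16 CpG, the exon 1A window 27 and the Gs-alpha window 40. Their GC content was 61.0%, 64.3% and 81.7%.

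Meg3, Mest and Grb10 are shown as examples of windows that hold the letters TGCCGC. These letters are the core of the motif bound by the imprint-keeping zinc finger protein ZFP57. In each gene they occur at the start that carried most or a large share of its transcripts in the gland. The same held for other members, among them Nap1l5, Copg2, Nnat, Snrpn with Snurf, Plagl1 and Commd1. It did not hold for Igf2, where the start with the letters held 12.3% in mouse 2 and 0% in mouse 1. A Calcr start with the letters had 2 counts in mouse 2 and 0 in mouse 1. For Snrpn it depended on the quantification. The second quantification, described below, gave that start 11.4% of Snrpn in mouse 2 and 0% in mouse 1. Matches to TGCCGC or to its reverse complement GCGGCA are in capitals. The Meg3 window lies on the plus strand, the Mest window on the plus strand and the Grb10 window on the minus strand.
Meg3, chr12:109540746-109541045: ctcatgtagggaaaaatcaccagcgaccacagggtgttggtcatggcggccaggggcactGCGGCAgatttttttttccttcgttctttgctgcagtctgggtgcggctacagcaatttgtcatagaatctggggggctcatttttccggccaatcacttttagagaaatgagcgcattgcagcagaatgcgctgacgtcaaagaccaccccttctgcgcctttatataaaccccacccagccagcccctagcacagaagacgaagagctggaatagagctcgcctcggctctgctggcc
Mest, chr6:30737800-30738099: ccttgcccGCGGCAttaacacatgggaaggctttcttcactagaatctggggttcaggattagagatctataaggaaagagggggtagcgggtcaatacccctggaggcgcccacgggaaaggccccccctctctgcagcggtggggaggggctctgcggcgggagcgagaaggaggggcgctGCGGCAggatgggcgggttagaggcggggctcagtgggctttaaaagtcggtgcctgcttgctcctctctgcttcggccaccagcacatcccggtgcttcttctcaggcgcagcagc
Grb10, chr11:12037371-12037670: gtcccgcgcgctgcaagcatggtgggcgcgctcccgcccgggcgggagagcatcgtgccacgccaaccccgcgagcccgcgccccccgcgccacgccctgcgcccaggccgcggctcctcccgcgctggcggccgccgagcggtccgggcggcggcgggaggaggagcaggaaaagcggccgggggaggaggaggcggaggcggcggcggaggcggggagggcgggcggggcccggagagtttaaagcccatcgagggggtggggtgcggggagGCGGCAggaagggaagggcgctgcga
Mest held 2 matches in this window, and Meg3 and Grb10 held 1 each. The window of the downstream Grb10 promoter held none. RefSeq gave 56 promoters for 39 of the 48 genes. TGCCGC on either strand was found in 14 of the 56 windows (25.0%), against 11.6% of all 32851 promoter windows of 300 bases. Some windows overlap, such as those of Snrpn and Snurf, which are the same. With overlapping windows on 1 strand joined, the letters were found at 12 of 53 sites (22.6%), against 11.7% of all 30704 sites. The median number of CpG was 15 in the windows of the imprinted genes and 7 in all windows, and 38 of the 56 (67.9%) held at least 10 CpG, against 43.5% of all. TGCCGC contains a CpG itself, and windows matched in CpG number were not compared. Whether the letters are more frequent than this CpG content gives was therefore not tested. None of the Gnas windows held the letters TGCCGC.

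Several noncoding members are hosts of microRNAs, which are cut from short hairpins in the host transcript. By RefSeq positions on the host strand, Mirg held 14 hairpins with 26 mature forms, Rian 3 hairpins with 6 forms, Meg3 2 hairpins with 3 forms and H19 1 hairpin with 2 forms. A pair of the Mirg microRNAs shared their seed, bases 2 to 8, printed in capitals. They are shown because no other mature forms hosted by the members had a seed in common.
mmu-miR-453: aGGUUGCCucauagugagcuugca
mmu-miR-496a-5p: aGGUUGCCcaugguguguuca
Hairpins are too short for a library of this kind to recover well. All hairpin rows held 0 counts in both mice, apart from those in Rian with 0 counts in mouse 2 and 4 in mouse 1, so these tables describe the hosts and not the microRNAs.

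Depth came to 32192201 expected counts within genes in mouse 2 and 36558609 in mouse 1. An expected count is an estimated number of reads assigned to a gene, and TPM is that number per length, scaled to a fixed total per library. Markers of the labelled gland were abundant. The 8 cortex markers summed to 22193 TPM in mouse 2 and 20606 TPM in mouse 1, and the 6 chromaffin markers to 1952 and 2080 TPM. The mice differed in markers of fat. The 6 fat cell markers summed to 1941 TPM in mouse 2 and 1212 TPM in mouse 1, and all 6 were higher in mouse 2 beyond counting noise. TPM was also scaled over different library compositions, so that over all 17666 genes tested the median TPM was 1.11-fold higher in mouse 2 (0.15 on the log2 scale). TPM values therefore run high in mouse 2, and differences between the mice are judged on scaled counts. In whole tissue, fewer cells of a type and less RNA per cell cannot be told apart.

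The imprinted genes took 0.590% of the gene counts of mouse 2, with a 95% Wilson interval of 0.588% to 0.593%. In mouse 1 they took 0.588%, with an interval of 0.586% to 0.591%. They summed to 2842 TPM in mouse 2 and 2642 TPM in mouse 1. Levels spanned from nothing to among the most abundant transcripts of the gland. At 1 TPM or more in both mice stood 36 of the 48, at 10 TPM or more 27 and at 100 TPM or more 6. Of the 41 that code for protein, 31 (75.6%) reached 1 TPM in both mice, against 54.1% of all 22015 nuclear protein-coding genes, and 4 (9.76%) reached 100 TPM, against 1.99%. Of all annotated genes 23.7% reached 1 TPM in both mice. The median level was 12.3 TPM over the 48 genes and 1.85 TPM over nuclear protein-coding genes. A few genes held most of this RNA. Gnas, Meg3, Cdkn1c, Dlk1, Cd81, Rian and Peg10 made up 80.2% of the summed TPM in mouse 2 and 80.7% in mouse 1.

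The genes were also set apart by the allele reported as expressed. Of 24 paternal genes, 18 were at 1 TPM or more in both mice and 10 at 10 TPM or more, with a median of 8.51 TPM. Of 23 maternal genes, 17 were at 1 TPM or more and 16 at 10 TPM or more, with a median of 22.6 TPM. Gnas is counted apart, because its transcripts differ in allele. The maternal list includes genes such as Cd81, Nap1l4, Copg2 and Commd1 that are imprinted in few tissues or stages, and whether they were imprinted here was not measured.

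**Figure D1:**
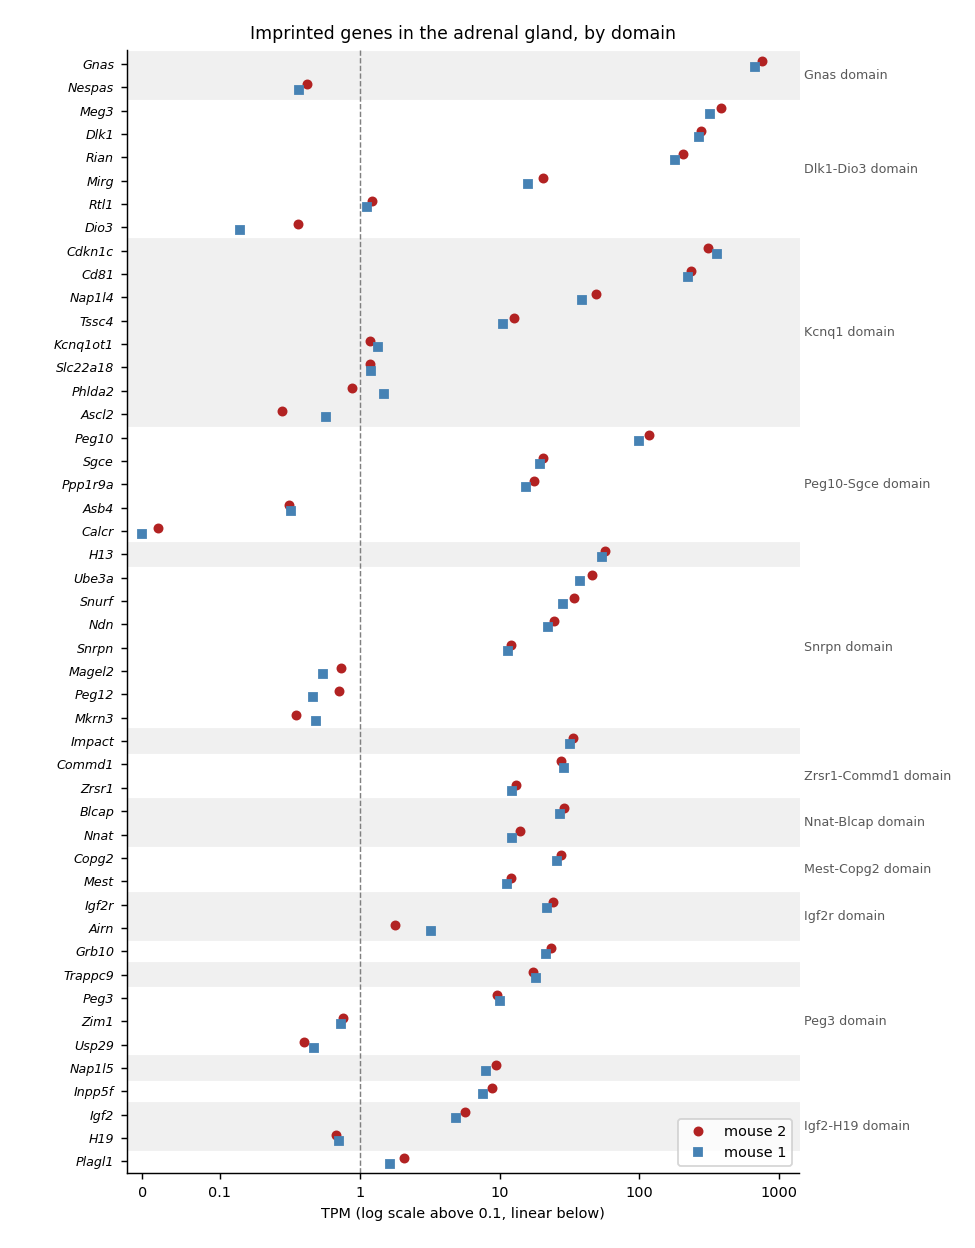
TPM of each of the 48 genes in mouse 2 (circles) and mouse 1 (squares), grouped by imprinted domain, on a log axis that is linear below 0.1, with the dashed line at 1 TPM. Gnas, Meg3, Cdkn1c, Dlk1, Cd81 and Rian lie above 100 TPM in both mice, and within most domains the members differ far more from each other than the mice do.

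The Dlk1-Dio3 domain of chromosome 12 was the most abundant, with its 6 members summing to 885 TPM in mouse 2 and 784 TPM in mouse 1. Its maternal copy makes the noncoding RNAs Meg3, Rian and Mirg, and its paternal copy makes Dlk1, Rtl1 and Dio3. Meg3 reached 384 TPM in mouse 2 and 319 TPM in mouse 1 (351 ± 46.3, SD, n = 2). Rian, the host of small nucleolar RNAs and microRNAs, reached 205 TPM in mouse 2 and 181 TPM in mouse 1. Mirg was lower, with 20.6 TPM in mouse 2 and 16.0 in mouse 1. The noncoding RNAs thus stepped down along the domain in both mice. Meg3 was 1.88-fold above Rian in mouse 2 and 1.76-fold in mouse 1, and Rian was 9.93-fold above Mirg in mouse 2 and 11.3-fold in mouse 1.

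Of the protein-coding genes of the domain, only Dlk1 was abundant. Dlk1, a membrane protein of the Delta family that restrains fat cell differentiation, reached 274 TPM in mouse 2 and 266 TPM in mouse 1 (270 ± 5.59, SD, n = 2), above 99.5% of nuclear protein-coding genes. Rtl1, a protein derived from a retrotransposon and transcribed from the opposite strand, reached 1.23 TPM in mouse 2 and 1.12 TPM in mouse 1. Dio3, the deiodinase that inactivates thyroid hormone, had 16 counts in mouse 2 and 11 in mouse 1, or 0.36 and 0.14 TPM. The paternal genes of the same domain were thus spread over 3 orders of size, with Dlk1 223-fold above Rtl1 in mouse 2 and 238-fold in mouse 1. The ratio of maternal Meg3 to paternal Dlk1 was 1.40 in mouse 2 and 1.20 in mouse 1.

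**Figure D2:**
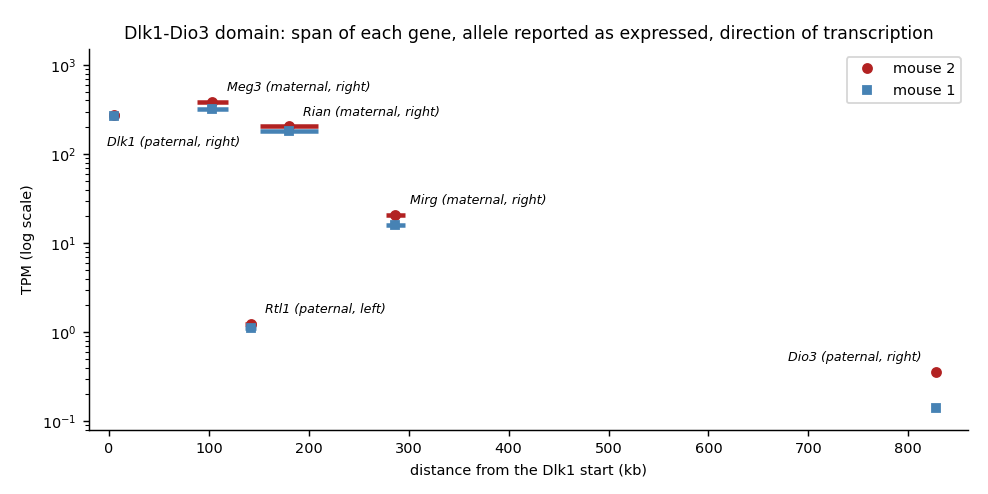
TPM (log axis) against distance from the Dlk1 start in kilobases for the 6 genes of the Dlk1-Dio3 domain, with bars for the span of each gene, circles for mouse 2 and squares for mouse 1. Dlk1, Meg3 and Rian lie between 181 and 384 TPM, Mirg between 16.0 and 20.6 TPM, and Rtl1 and Dio3 at or below 1.23 TPM.

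The leading transcripts of the domain were split among many annotated forms. Dlk1-205 made up 52.2% of Dlk1 transcripts in mouse 2 and 55.0% in mouse 1, Dlk1-204 14.4% and 19.7%, and Dlk1-203 14.7% and 13.8%. Of Meg3, Meg3-205 made up 28.8% in mouse 2 and 26.2% in mouse 1, Meg3-204 17.9% and 17.5%, Meg3-207 18.1% and 15.8%, Meg3-211 9.82% and 12.0%, and Meg3-208 9.21% and 10.7%. Transcripts that begin at the Meg3 promoter printed above held 46.9% of Meg3 in mouse 2 and 41.9% in mouse 1, and the rest began at internal starts. In counts, that promoter held 9173 in mouse 2 and 8414 in mouse 1. The internal form Meg3-209 held more counts, 10185 and 10628, though only 5.59% and 5.67% of transcripts. Rian-202 led Rian with 33.0% in mouse 2 and 32.3% in mouse 1, and Mirg-201 led Mirg with 26.4% and 32.7%. No form held a majority of any of the 3 noncoding genes.

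The Kcnq1 domain of chromosome 7 summed to 610 TPM in mouse 2 and 640 TPM in mouse 1 over its 8 members. Cdkn1c, the maternally expressed inhibitor p57 of cyclin-dependent kinases, led it with 310 TPM in mouse 2 and 362 TPM in mouse 1 (336 ± 37.0, SD, n = 2). Cd81, a tetraspanin of the cell surface, reached 235 TPM in mouse 2 and 224 TPM in mouse 1. Both were above 99% of nuclear protein-coding genes, and Cdkn1c was the only one of the 7 most abundant members with higher TPM in mouse 1. Nap1l4, a nucleosome assembly protein, stood at 48.6 and 38.8 TPM, and Tssc4 at 12.8 and 10.6 TPM, in mouse 2 and mouse 1.

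The other members of the Kcnq1 domain were close to 1 TPM or below. Kcnq1ot1, the paternal noncoding RNA that silences its neighbours on the same chromosome, reached 1.18 TPM in mouse 2 and 1.35 TPM in mouse 1. Because its single annotated transcript spans 93.1 kb, this low TPM rested on 3611 counts in mouse 2 and 5122 in mouse 1. Slc22a18, a membrane transporter, reached 1.18 TPM in mouse 2 and 1.20 TPM in mouse 1. Phlda2, which restrains placental growth, had 19 counts (0.88 TPM) in mouse 2 and 29 counts (1.50 TPM) in mouse 1. Ascl2, a transcription factor of the trophoblast, had 14 counts (0.28 TPM) in mouse 2 and 32 counts (0.57 TPM) in mouse 1. Domain neighbours thus ranged from the level of Cdkn1c to counts near the limit of detection. Kcnq1 itself, a potassium channel gene in which Kcnq1ot1 lies on the opposite strand, reached 1.31 TPM in mouse 2 and 1.42 TPM in mouse 1.

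Cdkn1c-201 made up 55.2% of Cdkn1c transcripts in mouse 2 and 50.2% in mouse 1, Cdkn1c-205 33.1% and 35.9%, and Cdkn1c-202 11.0% and 12.4%. Cd81-201 held 96.3% of Cd81 in mouse 2 and 96.6% in mouse 1. Nap1l4-206 led Nap1l4 with 51.6% and 62.0%, and Slc22a18-201 led Slc22a18 with 87.5% and 79.5%. For Tssc4 the leading form differed between the mice. Tssc4-206 held 24.3% in mouse 2 and 45.6% in mouse 1, while Tssc4-201 held 35.4% and 15.7%.

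Gnas (chr2:174284320-174346744, mm10) was the highest of the 48 genes, with 756 TPM in mouse 2 and 678 TPM in mouse 1 (717 ± 55.1, SD, n = 2). It encodes the subunit that couples the receptor for corticotropin and other receptors to cyclic AMP production, and it stood above 99.9% of nuclear protein-coding genes. Most of this came from the Gs-alpha start. Transcripts from that start held 92.8% of Gnas in mouse 2 and 90.4% in mouse 1, or 702 and 613 TPM. Among them Gnas-208 held 42.6% and 46.5%, Gnas-206 29.8% and 23.5%, and Gnas-207 20.5% and 20.4%.

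The imprinted starts of Gnas were minor beside it. Transcripts that begin in the Nesp window printed above held 1.95% in mouse 2 and 2.12% in mouse 1, or 14.8 and 14.4 TPM. With Gnas-214 and Gnas-215, which begin downstream of that window, the Nesp start held 3.26% and 3.35%, or 24.7 and 22.7 TPM, but Gnas-214 was listed at 0 in the second quantification described next. The start of XLas, the extra-large form of the G-protein subunit made from the paternal copy, held 0.16% in mouse 2 and 0.17% in mouse 1. The exon 1A start held 1.46% in mouse 2 and 2.02% in mouse 1. Nespas, the paternal antisense RNA across the Nesp start, had 23 counts in mouse 2 and 19 in mouse 1. The share of the exon 1A start depended on the quantification. A table made straight from the reads, here called the second quantification, gave it 26.1% in mouse 2 and 25.8% in mouse 1, and gave the Gs-alpha start 71.3% and 65.0%. A single short noncoding form, Gnas-218, held 24.1% and 24.0% there, with 3328 and 3875 estimated counts, against 0 and 105 counts in the first quantification. The Nesp start held 2.04% in mouse 2 and 2.12% in mouse 1 in the second quantification, and the XLas start 0.14% and 0.15%.

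**Figure D3:**
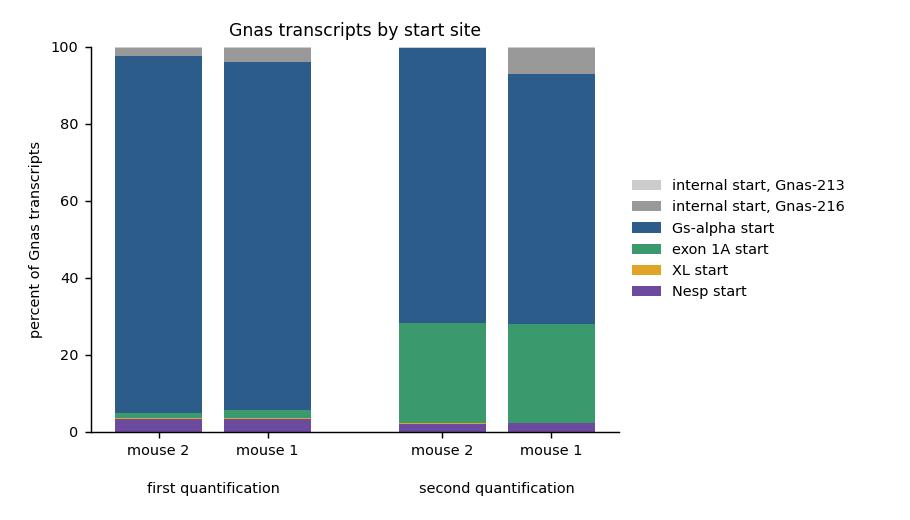
Percent of Gnas transcripts by start site, stacked, in mouse 2 and mouse 1 under the first and the second quantification of the same libraries. The Gs-alpha start holds 90.4% to 92.8% in the first and 65.0% to 71.3% in the second, where the exon 1A start holds 25.8% to 26.1%.

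The growth factor Igf2 and its partners are the best known imprinted genes. Igf2, paternally expressed and abundant in the fetal adrenal, reached 5.70 TPM in mouse 2 and 4.92 TPM in mouse 1 (5.31 ± 0.55, SD, n = 2). H19, the noncoding RNA made by the maternal copy of the same domain, had 49 counts (0.68 TPM) in mouse 2 and 63 counts (0.71 TPM) in mouse 1. Igf2 was thus 8.38-fold above H19 in mouse 2 and 6.93-fold in mouse 1. Igf2r, the maternally expressed receptor that carries IGF2 to the lysosome, reached 24.3 TPM in mouse 2 and 21.7 TPM in mouse 1, or 4.26-fold and 4.42-fold above Igf2. Ins2, the insulin gene next to Igf2, was listed at 0 counts in both mice, which allows up to 0.0932 CPM (3 counts scaled to library size) in mouse 2 and 0.0821 CPM in mouse 1.

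Igf2 transcripts were spread over several starts, and 2 groups of starts were listed in 1 mouse each. The starts that hold Igf2-204, Igf2-206 and Igf2-207 had 37.7% of Igf2 in mouse 2 and 0% in mouse 1, while the most upstream start, of Igf2-203, had 0% in mouse 2 and 21.3% in mouse 1. By form, Igf2-208 held 23.0% and 22.7%, Igf2-202 15.9% and 29.1%, Igf2-205 12.0% and 16.9%, Igf2-201 11.4% and 9.97%, Igf2-207 25.4% and 0%, and Igf2-204 12.3% and 0%, in mouse 2 and mouse 1. These shares divide only 392 counts in mouse 2 and 431 in mouse 1. Igf2-204 rested on 89.2 counts and Igf2-207 on 13.1 counts in mouse 2, and Igf2-203 on 23.5 counts in mouse 1. The starts of Igf2-205, of Igf2-201 with Igf2-202, and of Igf2-208 were used in both mice. Igf2os, an antisense RNA across part of Igf2, had 8 counts in mouse 2 and 6 in mouse 1.

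Airn, the paternal antisense RNA that silences Igf2r on its own chromosome, was low and uneven. It reached 1.80 TPM in mouse 2 and 3.21 TPM in mouse 1, from 53 and 111 counts. Igf2r was 13.5-fold above Airn in mouse 2 and 6.77-fold in mouse 1. The spans of Airn and Igf2r, introns included, overlap over 28354 bases on opposite strands. The posterior SD deposited with each count was 0 for both genes in both mice, so no reads were listed as divided between them. The sources used here do not say whether strand was used in counting. A read of the shared part may therefore have been counted for the gene of the other strand. Igf2r-201 held 98.0% of Igf2r in mouse 2 and 99.3% in mouse 1, while the leading form of Airn, Airn-201, held 27.5% and 30.4%. Grb10, an adaptor that restrains insulin and IGF1 receptor signalling, reached 23.5 TPM in mouse 2 and 21.7 TPM in mouse 1. Grb10 uses an upstream promoter on the maternal copy in most tissues and downstream promoters on the paternal copy in neurons. Grb10-201, which begins at the upstream promoter printed above, held 87.8% in mouse 2 and 84.6% in mouse 1. Grb10-203, from the downstream RefSeq promoter, held 0.74% and 4.04%, while the next start downstream, of Grb10-207 and Grb10-209, held 7.23% in mouse 2 and 2.96% in mouse 1 from 26.5 and 21.9 counts. The second quantification gave the start of Grb10-201 84.4% in mouse 2 and 58.6% in mouse 1. It gave Grb10-203 3.22% and 6.56%, and the most downstream start, of Grb10-204, 0% and 12.3%.

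The Snrpn domain, the mouse counterpart of the Prader-Willi and Angelman region, held both common and rare transcripts. Ube3a, a ubiquitin ligase expressed from the maternal copy in neurons and from both copies elsewhere, reached 45.8 TPM in mouse 2 and 38.0 TPM in mouse 1. Ndn, the MAGE family protein necdin, stood at 24.4 and 22.2 TPM. Snrpn, a core protein of the spliceosome, reached 12.1 TPM in mouse 2 and 11.5 TPM in mouse 1. Snurf, read from the upstream part of the same bicistronic transcript, was given 34.1 TPM in mouse 2 and 28.4 TPM in mouse 1 from only 130 and 134 counts, because its annotated transcript is short. The division of reads between Snurf and Snrpn is uncertain, since Snurf lies wholly within Snrpn on the same strand. The second quantification listed Snurf at 0 in both mice.

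The intronless genes of the Snrpn domain other than Ndn were rare. Magel2, a partner of ubiquitin ligases, had 108 counts (0.73 TPM) in mouse 2 and 101 counts (0.55 TPM) in mouse 1. Peg12 had 59 counts in mouse 2 and 48 in mouse 1. Mkrn3, a ring finger protein, had 28 counts in mouse 2 and 49 in mouse 1. All 3 are paternally expressed like Ndn, and all 3 stayed below 1 TPM in both mice. Ube3a-203 led Ube3a with 27.4% in mouse 2 and 26.6% in mouse 1, and Ndn-201 and Snurf-201 are the only forms of their genes. Snrpn-201, which begins at the downstream RefSeq promoter, held 100% of Snrpn in both mice, whereas the second quantification gave Snrpn-202, from the upstream start, 88.6% in mouse 2 and 100% in mouse 1.

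The Peg10-Sgce domain of chromosome 6 was led by a single gene. Peg10, a protein with a viral-like frameshift that is derived from a retrotransposon, reached 117 TPM in mouse 2 and 99.9 TPM in mouse 1 (108 ± 12.0, SD, n = 2). Sgce, epsilon-sarcoglycan of the cell membrane, shares its promoter region with Peg10 and stood at 20.4 and 19.4 TPM, so Peg10 was 5.74-fold above it in mouse 2 and 5.16-fold in mouse 1. Ppp1r9a, the actin-binding protein neurabin, reached 17.5 TPM in mouse 2 and 15.4 in mouse 1. The remaining members were close to absent. Asb4 held 30 counts in mouse 2 and 38 counts in mouse 1, and the calcitonin receptor gene Calcr had 2 counts in mouse 2 and 0 in mouse 1, a count that allows up to 0.0821 CPM. Peg10-203 held 98.1% of Peg10 in mouse 2 and 94.3% in mouse 1, Sgce-205 83.8% and 85.6% of Sgce, and Ppp1r9a-201 43.8% and 41.8% of Ppp1r9a.

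Mest and Copg2, which overlap end to end on opposite strands of chromosome 6, were both present. Mest, an enzyme of the hydrolase fold and a gene of fetal growth, reached 12.0 TPM in mouse 2 and 11.3 TPM in mouse 1. Copg2, a coat protein of Golgi vesicles, reached 27.3 TPM in mouse 2 and 25.8 in mouse 1. The imprinted start of Mest, shown above, held 94.96% of its transcripts in mouse 2 and 89.2% in mouse 1, with Mest-211 at 67.6% and 64.4% and Mest-204 at 24.4% and 24.7%. Copg2-201 held 41.5% in mouse 2 and 42.6% in mouse 1, Copg2-208 39.2% and 34.9%, and Copg2-202 16.1% and 13.1%.

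In the Peg3 domain of chromosome 7 only Peg3 itself reached 1 TPM. Peg3, a large zinc finger protein, reached 9.64 TPM in mouse 2 and 10.0 in mouse 1, with Peg3-201 at 81.0% and 74.7% of its transcripts. Usp29, transcribed from the same promoter region in the other direction, had 47 counts in mouse 2 and 81 in mouse 1. Zim1, the maternally expressed zinc finger gene of the domain, had 89 counts in mouse 2 and 116 in mouse 1. Peg3 was thus above its neighbours in each mouse, which held less than 1 TPM each.

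Several members are small genes inside the intron of a larger host, some of which arose by retroposition, and which of the pair was the higher differed between them. Nnat, the membrane proteolipid neuronatin, lies on the opposite strand within Blcap. Nnat reached 13.9 TPM in mouse 2 and 12.2 TPM in mouse 1, and Blcap reached 29.0 and 27.2 TPM. Zrsr1, a relative of a splicing factor subunit, lies on the opposite strand within Commd1, a gene of copper handling. Zrsr1 reached 13.1 TPM in mouse 2 and 12.3 TPM in mouse 1, and Commd1 reached 27.4 and 28.7 TPM. The host was between 2.08-fold and 2.33-fold above the inner gene in both pairs and both mice. For Zrsr1 and Commd1 this order turned round in the second quantification, with Zrsr1 at 28.7 and 31.9 TPM and Commd1 at 21.3 and 25.6 TPM. Where the strand was not used in counting, a read of the bases that such a pair shares may have been counted for the gene of the other strand.

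H13, the signal peptide peptidase, reached 57.0 TPM in mouse 2 and 54.6 TPM in mouse 1, and Mcts2 within it reached 11.3 and 8.08 TPM. On the maternal copy H13 is read through Mcts2, and on the paternal copy it ends before it. H13 forms that end beyond Mcts2 held 85.4% in mouse 2 and 87.1% in mouse 1, and those that end before it 14.6% and 12.9%. These shares count transcripts and not alleles. H13-202 led with 70.7% and 74.3%, followed by H13-204 with 13.1% and 11.2%. Trappc9, a subunit of a vesicle tethering complex, reached 17.3 TPM in mouse 2 and 18.3 TPM in mouse 1, while the noncoding RNA Peg13 within it, on the same strand, stood at 34.3 and 28.8 TPM. In this pair the inner gene was the higher. Nap1l5 reached 9.47 TPM in mouse 2 and 8.00 TPM in mouse 1, close to but also above its host Herc3 at 9.25 and 7.40 TPM.

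In most of these genes 1 form led. Trappc9-202 held 74.0% in mouse 2 and 70.7% in mouse 1, and Nap1l5-201 98.2% and 98.7%. Blcap-202 held 76.1% and 70.1%, Blcap-203 9.73% and 16.8%, and Blcap-204 11.7% and 13.2%. Commd1-202 held 51.6% and 57.8%, Commd1-203 26.5% and 27.5%, and Commd1-205 18.8% and 12.7%. Zrsr1 was divided between Zrsr1-202 with 51.8% and 49.8%, a form annotated as a pseudogene, and Zrsr1-201 with 48.2% and 50.2%. Among the genes of this paragraph, Nnat was the one in which the mice differed most in form. Nnat-202 held 69.9% in mouse 2 and 50.9% in mouse 1, and Nnat-205 held 8.98% in mouse 2 and 42.6% in mouse 1, from 43.0 and 221 counts.

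Of the remaining members, Impact, which restrains the kinase GCN2 in the response to amino acid shortage, reached 33.8 TPM in mouse 2 and 31.7 TPM in mouse 1. Inpp5f, a phosphatase of phosphoinositides, reached 8.89 TPM in mouse 2 and 7.68 TPM in mouse 1. Plagl1, a zinc finger transcription factor that regulates other imprinted genes, was low at 2.06 and 1.66 TPM. Impact-201 held 44.2% in mouse 2 and 42.8% in mouse 1. Inpp5f-201 held 67.0% and 65.9%, and Inpp5f-206, a retained intron, 7.31% and 10.3%. Plagl1-202 held 52.5% in mouse 2 and 71.2% in mouse 1, Plagl1-214 17.0% and 0%, and Plagl1-222 3.97% and 12.4%, from 218 counts of the gene in mouse 2 and 261 in mouse 1.

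Differences between the mice were small beside those between the genes. The log2 ratio of mouse 2 to mouse 1, from counts scaled by TMM with a prior count of 2, could be set for the 47 genes whose mean was at least 10 counts, all but Calcr. Its median was -0.05, against 0.00 over all 17666 genes tested. It was above 0 in 18 genes and below 0 in 29. No member was 2-fold apart in either direction, where 1.15% of all genes were at least 2-fold higher and 1.81% at least 2-fold lower in mouse 2. Among the 36 members with a mean of at least 100 counts, the ratio ran from -0.37 to 0.23. The lowest and the highest ratio of all 47 belonged to rare transcripts, Ascl2 with -0.97 and Dio3 with 0.59.

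An exact two-sided binomial test of the rounded counts, adjusted by Benjamini-Hochberg over all genes tested, asks which ratios exceed counting noise between these libraries, and says nothing of conditions. It called 10 of the 47 members, against 21.3% of all genes. It called 9 of the 23 members with a mean of at least 1000 counts (39.1%), against 37.1% of all genes at that depth. At that depth the share was near the background. Called higher in mouse 2 were 3 members, where the background was 10.4%, and called lower were 7, where it was 11.0%.

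The largest called difference was in Airn, with 53 counts in mouse 2 and 111 in mouse 1, a log2 ratio of -0.91 with a 95% counting interval of -1.43 to -0.45 (exact binomial, adjusted p = 0.000854). Kcnq1ot1 followed with 3611 counts in mouse 2 and 5122 in mouse 1, a log2 ratio of -0.37 (exact binomial, adjusted p = 1.57e-30). Both are long paternal antisense RNAs that overlap a neighbour, Airn over 23.9% of its span and Kcnq1ot1 over 100%. Nespas, also a paternal antisense RNA, had 23 counts in mouse 2 and 19 in mouse 1, a log2 ratio of 0.37, and was not called. Cdkn1c had 14077 counts in mouse 2 and 19724 in mouse 1, with a log2 ratio of -0.35 and an interval of -0.38 to -0.32 (exact binomial, adjusted p = 3.56e-107). Trappc9 had 2236 counts in mouse 2 and 2891 in mouse 1, a log2 ratio of -0.24, and Peg3 had 2439 and 3025, a log2 ratio of -0.18. Dlk1 had 13650 counts in mouse 2 and 17331 in mouse 1, a log2 ratio of -0.21, although its TPM was 274 in mouse 2 and 266 in mouse 1. Cd81 had 10920 counts in mouse 2 and 12938 in mouse 1, a log2 ratio of -0.11, again with higher TPM in mouse 2.

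The ratios of the members called higher in mouse 2 were smaller. Meg3 had 22937 counts in mouse 2 and 23131 in mouse 1, a log2 ratio of 0.12 (exact binomial, adjusted p = 4.51e-18). Ube3a had 6095 counts in mouse 2 and 6338 in mouse 1, a log2 ratio of 0.08, and Peg10 had 24838 and 26325, a log2 ratio of 0.05. Ube3a (exact binomial, adjusted p = 0.0159) and Peg10 (adjusted p = 0.000756) lost their calls under spike-in scaling, at adjusted p = 0.0975 and 0.0729, and Ube3a also in the second quantification, at 0.0503. Gnas, the most abundant member, had 40011 counts in mouse 2 and 43671 in mouse 1, a log2 ratio of 0.01 with an interval of -0.01 to 0.03. Fat cell markers were higher in mouse 2 in 6 of 6 genes, with a median log2 ratio of 0.66. The 6 chromaffin markers had a median of -0.22, with 5 of 6 called lower, and the 7 capsule and fibroblast markers a median of -0.19, with 3 called lower. Of the 8 cortex markers 5 were called lower and 2 higher, with a median of -0.08. In the ovary list Foxl2 was called lower, with 33 counts in mouse 2 and 110 in mouse 1. Its log2 ratio was -1.55 (exact binomial, adjusted p = 5.02e-08). No endothelial, macrophage or Schwann cell marker was called. Apart from Fshr of the ovary list, none of these markers was at 0, and their part in the differences of the imprinted genes was not tested.

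**Figure D4:**
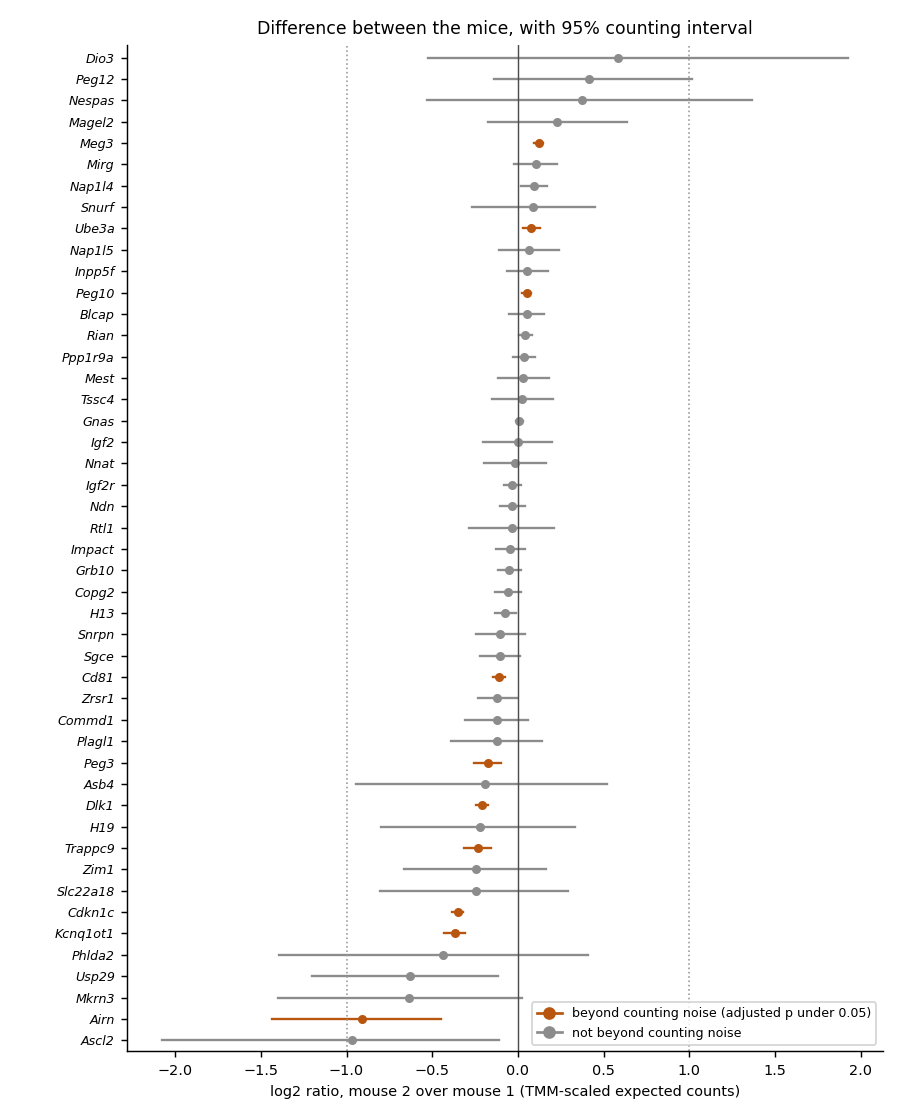
Log2 ratio of mouse 2 over mouse 1 from TMM-scaled expected counts for the 47 genes tested, with 95% counting intervals, coloured where the exact binomial test called a difference, and dotted lines at 2-fold. All points lie between -0.97 and 0.59, and the 10 called genes include abundant ones with narrow intervals, such as Cdkn1c at -0.35.

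The second quantification of the same libraries gave gene levels within 2-fold for all but 2 of the 37 members with a mean of at least 1 TPM, where 4.78% of all 13524 genes were 2-fold apart. For 29 of the 37 the difference was within 0.25 on the log2 scale. Zrsr1 was higher at 28.7 TPM in mouse 2 and 31.9 in mouse 1 in the second, a log2 ratio of 1.24 on TPM plus 0.1 (0.68% of genes were at least 2-fold higher there). All of it was assigned to Zrsr1-201. Snurf was the other exception, listed at 0 in the second (4.1% of genes were at least 2-fold lower there). Nap1l4 was also higher, with 76.6 TPM in mouse 2 and 59.4 TPM in mouse 1 in the second, a log2 ratio of 0.64.

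Transcript forms were less settled than genes. Of the 32 expressed members with several annotated transcripts, the leading form held at least 90% in 5, between 50% and 90% in 16, and under 50% in 11. By the mean share of both mice, the second quantification named the same leading form in 22 and another in 10. Those 10 were Airn, Blcap, Copg2, Igf2, Nap1l4, Peg10, Rian, Snrpn, Ube3a and Zrsr1. Slc22a18 counts among the 22, but there the mice were split. The second quantification gave Slc22a18-202 93.5% in mouse 2, and Slc22a18-201 100% in mouse 1. Peg10 was a complete exchange, with Peg10-203 at 96.2% on average in the first and Peg10-202 at 99.9% in the second, while the level of the gene stayed at 109 TPM in mouse 2 and 93.0 in mouse 1. The posterior SD of the count was 0 in both mice for 40 of the 48 genes.

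**Figure D5:**
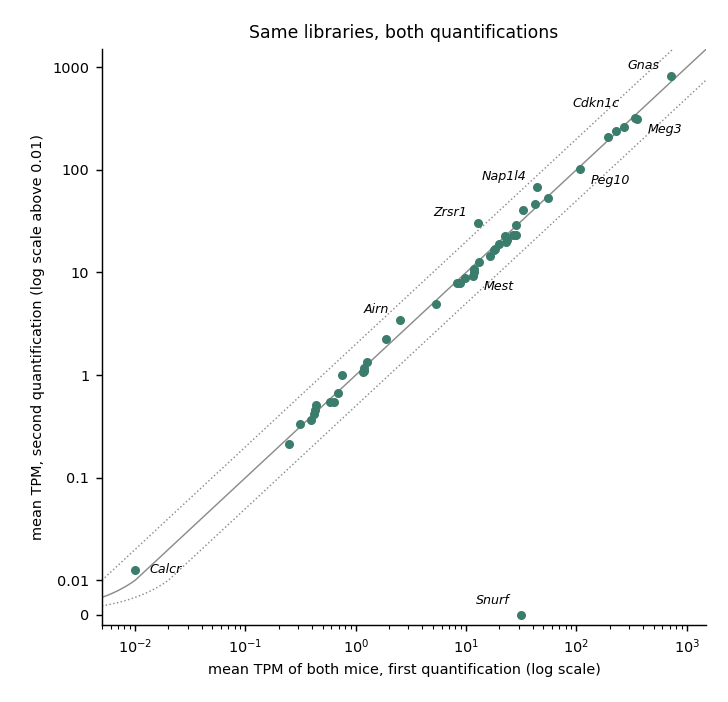
Mean TPM of both mice in the second quantification against the first for the 48 genes, on log axes with the vertical axis linear below 0.01, the line of equality and dotted lines at 2-fold. Zrsr1 lies above the 2-fold line and Snurf at 0, while the other genes named lie between the dotted lines.

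Beyond the 48 genes, 34 other genes reported as imprinted in the mouse were listed for comparison. Of these 23 stood at 1 TPM or more in both mice, 15 at 10 TPM or more, and 29 could be tested between the mice. The exact binomial test called 2 higher and 5 lower in mouse 2, beside 10.4% and 11.0% of all genes, and none was 2-fold apart, where 1.15% and 1.81% of all genes were. The most abundant was Dhcr7, the last enzyme of cholesterol synthesis, with 295 TPM in mouse 2 and 276 TPM in mouse 1. Th, tyrosine hydroxylase of the chromaffin cells, followed with 252 and 240 TPM. Smoc1 stood at 49.7 and 53.5 TPM, Dcn at 50.9 and 46.2 TPM, Pon3 at 34.9 and 28.3 TPM, and Ddc at 25.2 and 21.7 TPM. Many of these are imprinted in the placenta or in a single tissue. The others at 10 TPM or more were Atp10a, Bcl2l1, Kcnk9, Ago2, Jade1, Pon2, Osbpl5, Chrac1 and Casd1, which lay between 10.7 and 24.3 TPM. Kcnk9, Chrac1 and Ago2 adjoin Trappc9.

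RNA of most genes listed as regulators of imprints or of DNA methylation was present in the adult gland. Of 20 listed, 15 stood at 1 TPM or more in both mice and 10 at 10 TPM or more. Uhrf1 fell just short, at 0.98 TPM in both mice. Trim28, the corepressor recruited to imprint control regions, reached 79.5 TPM in mouse 2 and 64.0 in mouse 1. The zinc finger proteins that recruit it differed, with Zfp445 at 49.9 TPM in mouse 2 and 46.1 in mouse 1 and Zfp57 at 0.90 and 0.65 TPM, from 41 and 36 counts. Dnmt1, the methyltransferase that copies the mark at each division, stood at 13.8 and 12.3 TPM, Ctcf, the insulator protein of the Igf2-H19 domain, at 18.8 and 20.2 TPM, and the histone methyltransferase Ehmt2 at 54.2 and 49.0 TPM. Dnmt3a, Smchd1, Tet2, Arid4b and Eed lay between 10.0 and 18.3 TPM. Of the 19 regulators tested, the exact binomial test called Tet2 alone, with a log2 ratio of -0.12, where 21.3% of all genes were called.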

How the data were processed

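Total RNA of 2 adrenal gland libraries of 1 group was analysed, each made from 300 ng of RNA with ERCC spike-ins and a directional library kit, per the labels. Per the file headers, the deposited gene tables list an expected count per gene, an estimate that can hold fractions, with TPM and FPKM, and the deposited transcript tables add the percent of a gene that each form makes up. Deposited beside each count is its posterior SD, and a second deposited transcript table holds estimated counts and TPM made from the reads directly. Assembly mm10 is per the labels and annotation GENCODE M21 per the deposited files. The aligner, the quantifiers and any use of strand in counting were not given in the sources used here.

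Rows that name no gene held 0.527% of the counts in mouse 2 and 0.503% in mouse 1 and stayed out of library sizes and tests. Levels are the deposited TPM with mean and SD. Ratios used TMM scaling in edgeR 4.0.16 (R 4.3.3), a prior count of 2 and genes whose mean was at least 10 counts, with a 2-fold threshold. Rounded counts entered an exact binomial test (two-sided), with Benjamini-Hochberg adjustment and a threshold of 0.05. It compares 2 libraries, so no test of conditions was made. The ratio and the test were tested on simulated data. The second quantification was summed over each gene's transcripts and set against the first on TPM plus 0.1, and 86 genes without a row there were left out. Transcripts whose starts lie within 1000 bases of the next were joined into a start, and promoters were matched to starts within 500 bases. Intervals and floors (3 counts) cover counting error only, since reads are not independent molecules. Other steps used Python 3.11.15, pandas 2.3.3 and scipy 1.17.1.

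The members, the lists and the markers were chosen with earlier results of these data known. The text gives every member, with both TPM values for those at 1 TPM or more, both counts for those called, the leading transcript of each expressed member, and every transcript of at least 10% in either mouse for 19 genes with known alternative forms. Of the comparison lists it names the genes at 10 TPM or more and the partners of members. Peg3os and Ipw matched no row by symbol. The alternatives were total count, DESeq2 1.42.0 size factor and ERCC scaling, no filter or at least 100 counts, a prior count lowered to 0.5, the second quantification, FPKM, TPM rescaled to nuclear protein-coding genes and the members, other thresholds, and each mouse alone.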

Additional observations from a re-analysis of the deposited data

How the results depend on the processing

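No paired analysis was possible because the labels give 1 group. The number of members at 1 TPM or more in both mice, 36, was 35 in the second quantification, 36 in FPKM and 44 after rescaling to nuclear protein-coding genes. With each mouse alone it was 36 to 37. The count of 0 members at least 2-fold higher became 1 with no filter on counts (Calcr, 2 counts in mouse 2 and 0 in mouse 1), and that of 0 members at least 2-fold lower became 1 with a prior count of 0.5 (Ascl2, 14 and 32 counts). The 10 binomial calls were 14 under total count scaling, 10 under DESeq2 size factors, 9 under ERCC scaling and 11 in the second quantification, where 24.7%, 21.4%, 21.7% and 21.1% of all genes were called, against 21.3%. Under total counts the median over all genes was 0.05, and calls were added for Gnas, Rian, Nap1l4 and Ppp1r9a, all higher in mouse 2. ERCC scaling removed Peg10 and Ube3a and added H13 as lower. Airn, Cdkn1c, Kcnq1ot1, Dlk1, Trappc9, Peg3, Cd81 and Meg3 kept their calls and directions under these 4 alternatives. All 48 levels rose by more than the spread between the mice after rescaling to nuclear protein-coding genes and the members, with mean Gnas at 2316 TPM. Nuclear protein-coding genes held 32.3% of all TPM in mouse 2 and 29.5% in mouse 1, so levels and thresholds in TPM depend on this choice. In FPKM 18 levels moved by more than that spread, all higher. Of the 48 levels, 25 moved by more than the spread between the mice in the second quantification, with 9 higher and 16 lower there. Of 35 leading transcript shares, 22 moved by more than that spread, all lower. Leading forms were picked by their share in the first quantification, and this choice alone favours a lower share in another. With 2 mice, leaving out 1 cannot move a mean by more than the spread between the mice. Depth limits the rare members, with counting intervals of the log2 ratio from -0.52 to 1.93 for Dio3 and from -2.08 to -0.11 for Ascl2.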

Other observations

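Slc22a3, a cation transporter of the Igf2r domain that is imprinted in the placenta, had the widest called ratio among the 34 other imprinted genes. It had 178 counts (1.59 TPM) in mouse 2 and 100 counts (0.72 TPM) in mouse 1, a log2 ratio of 0.95 (exact binomial, adjusted p = 9.84e-07). Airn, of the same domain, had 53 counts in mouse 2 and 111 in mouse 1. Igf2r had 6879 and 7721 counts and a log2 ratio of -0.03. Slc22a3 was named after its values were seen.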
